A study of Mus musculus with 9 samples.

Results

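Wnt signalling genes were followed in mRNA sequencing libraries of 4 primary tumors and 5 control oviducts of the mouse. The 49 genes described here were chosen by symbol from the 19435 genes of the deposited table: 17 Wnt ligands, 10 frizzled receptors, the coreceptors Lrp5 and Lrp6, 4 R-spondins, the R-spondin receptors Lgr4, Lgr5 and Lgr6, 8 secreted antagonists, the feedback inhibitors Axin2, Nkd1 and Notum, and the transcription factors Lef1 and Tcf7. Tumors 1 to 4 were Dicer1ko/D1693N, with a deleted Dicer1 allele opposite the D1693N allele. Oviducts 1 to 3 were Dicer1+/D1693N and oviducts 4 and 5 were Dicer1+/+, so the D1693N allele was shared by the tumors and 3 of the controls. The labels name no treatment. Dicer1 encodes the RNase III enzyme that cuts miRNA precursors, and D1693N changes its RNase IIIb domain. The animals' ages, the way the allele was deleted and the stage of the estrous cycle are not given in the sources used here. The labels do not say whether each library came from a separate animal, so the p-values measure the spread between these libraries.

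Wnts are secreted lipid-modified proteins that bind a frizzled receptor together with LRP5 or LRP6. In the canonical branch this frees beta-catenin from its destruction complex, and beta-catenin then acts with the TCF and LEF factors on target genes. Axin2, Nkd1, Notum and Lgr5 are themselves targets in many tissues, R-spondins raise receptor levels at the membrane through the LGR proteins, and the SFRP, DKK and WIF families act outside the cell as modulators. In the female tract, Wnt4, Wnt5a, Wnt7a and Wnt11 take part in the patterning of the Müllerian duct, from which the oviduct forms.

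The tumor libraries held 8732190 to 11267144 reads and the oviduct libraries 8504993 to 12526078. Levels below are normalized counts, meaning reads divided by the size factor of each library, recovered from the deposited log2 values. Dicer1 itself was at 1282.9, 741.5, 1379.2 and 576.3 normalized counts in tumors 1 to 4, against 1236.8, 1004.7, 1145.3, 903.9 and 1141.0 in oviducts 1 to 5. These overlapped, and a count over the whole gene does not check a partial deletion. All 6 ciliated cell markers were called lower, with a summed level of 176 to 700 in tumors and 18157 to 28129 in oviducts. Of 6 genes listed for secretory epithelium, Ovgp1 and Cdh1 were called lower, while Pax8, Epcam, Krt8 and Krt18 were not called. Epcam, Krt8, Krt18 and Cdh1 are general epithelial genes and do not mark secretory cells alone. Krt18 was lower without overlap, but its log2 change of -0.60 (adjusted p = 0.0296 by limma) was under the minimum. The sum of the 6 genes was 15498 to 24823 in tumors and 93745 to 171773 in oviducts. In the oviducts it was mostly Ovgp1, an oviduct glycoprotein gene. Ovgp1 was at 8071.1, 11678.2, 8061.2 and 111.5 in tumors and 78143.7 to 150619.1 in oviducts. Stromal markers summed to 94594 to 103077 in tumors and 20785 to 38773 in oviducts, with 4 of 6 called higher and none at 0. Most of the tumor sum was Col1a1 and Col3a1, with tumor means of 38964 and 39682. Dcn and Lum were not called, at log2 changes of -0.22 and 0.92. Pdgfra was called higher but was at 1089.5 in tumor 4, within the oviduct range. Mesothelial markers summed to 760 to 2359 in tumors and 4675 to 6438 in oviducts, with 4 of 5 called lower and none at 0. Endothelial markers summed to 3946 to 8718 in tumors and 1658 to 2871 in oviducts, with 4 of 5 called higher. Macrophage markers summed to 4877 to 37435 in tumors and 2453 to 4318 in oviducts, with 3 of 4 called higher, and proliferation genes to 2895 to 5370 in tumors and 192 to 426 in oviducts, with 4 of 4 called higher; none of these was at 0. Tumor 4 alone among the tumors held fat cell markers, with a sum of 32032, against 29.3 to 88.4 in tumors 1 to 3 and 1104 to 9617 in oviducts; Adipoq was at 0 in tumors 1 to 3. Smooth muscle markers summed to 2796 to 68902 in tumors and 31738 to 71737 in oviducts. Of these 6 markers 2 were called lower, Myh11 and Cnn1, and the median log2 change was -1.79. In tissue RNA, fewer cells of a type and less RNA per cell cannot be told apart, and the part of these cell types in the results below was not tested.

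Of the 49 genes, 16 (32.7%) were called between tumors and oviducts, 9 higher and 7 lower in tumors, where a call needed an adjusted p under 0.05 (limma, Benjamini-Hochberg over all 19435 genes) and a log2 change of at least 1. By the same rule 18.7% of the table's genes were called, 6.53% higher and 12.1% lower. These shares also stand beside the count of each role below and of each marker list above. The genes higher in tumors were the receptors Fzd1, Fzd2 and Fzd7, the antagonists Sfrp1, Sfrp2 and Dkk2, the ligands Wnt2 and Wnt7a, and Lef1. The genes lower in tumors were the ligands Wnt2b and Wnt16, the R-spondin Rspo1 with the receptors Lgr5 and Lgr6, and the antagonists Sfrp5 and Dkk3. The median log2 change was 0.16 for the 49 genes and -0.05 for all genes. Tumors and oviducts did not overlap for 12 of the 49 genes, 6 in each direction, where 27.6% of all genes did not overlap, 10.8% higher and 16.8% lower. With no minimum change, 9 were higher and 10 lower, against 31.1% of all genes, 12.6% higher and 18.5% lower. Quantile normalization gave 13 higher and 6 lower, or 68.4% of calls higher against 56.2% in the deposited scaling; of all genes it called 8.73% higher and 10% lower. Without tumor 4 there were 14 higher and 8 lower, where 21.5% of all genes were called, 8.16% higher and 13.3% lower.

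**Figure D1:**
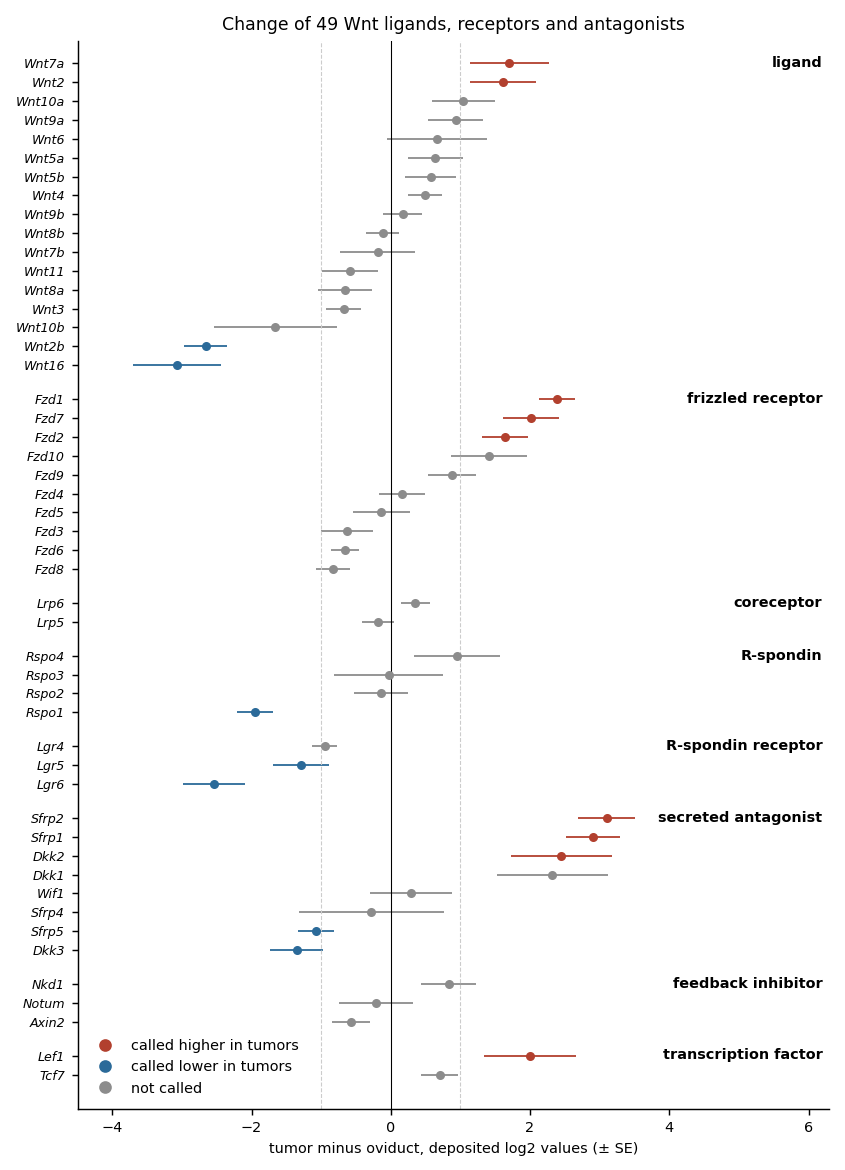
Difference between tumors and oviducts (x axis, tumor minus oviduct on the deposited log2 scale, bars ± SE, 4 tumors and 5 oviducts) for the 49 genes ordered by role. Red points were called higher in tumors, blue points lower and grey points neither, with dashed lines at a log2 change of 1 in each direction; the changes run from -3.07 for Wnt16 to 3.10 for Sfrp2.

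TCF and LEF factors bind DNA at a short element built on CTTTGA or CTTTGT, and 4 of the genes that were higher in tumors carry it directly upstream of an annotated start. The sequences below are those 4 windows of 250 bases from RefSeq on GRCm38.p6, shown because Fzd1, Fzd7, Dkk2 and Lef1 are the genes called higher whose window holds a match. Each reads 5′ to 3′ on the strand of its gene, and capitals mark the element on either strand, so that the reverse strand appears as TCAAAG or ACAAAG.
Fzd1 promoter: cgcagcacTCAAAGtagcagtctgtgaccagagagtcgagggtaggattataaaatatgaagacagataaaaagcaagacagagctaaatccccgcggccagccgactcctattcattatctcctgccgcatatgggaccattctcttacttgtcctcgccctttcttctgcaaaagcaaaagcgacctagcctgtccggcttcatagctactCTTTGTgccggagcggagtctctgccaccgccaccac
Fzd7 promoter: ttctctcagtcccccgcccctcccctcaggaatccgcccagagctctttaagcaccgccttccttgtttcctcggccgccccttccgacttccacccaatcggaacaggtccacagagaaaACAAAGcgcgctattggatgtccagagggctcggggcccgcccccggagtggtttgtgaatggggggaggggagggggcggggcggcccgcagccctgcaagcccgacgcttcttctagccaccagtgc
Dkk2 promoter: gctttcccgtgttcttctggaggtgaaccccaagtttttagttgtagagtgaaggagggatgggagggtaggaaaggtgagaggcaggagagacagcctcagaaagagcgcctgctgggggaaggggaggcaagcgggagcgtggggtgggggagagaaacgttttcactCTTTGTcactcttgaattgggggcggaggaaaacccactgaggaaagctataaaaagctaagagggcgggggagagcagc
Lef1 promoter: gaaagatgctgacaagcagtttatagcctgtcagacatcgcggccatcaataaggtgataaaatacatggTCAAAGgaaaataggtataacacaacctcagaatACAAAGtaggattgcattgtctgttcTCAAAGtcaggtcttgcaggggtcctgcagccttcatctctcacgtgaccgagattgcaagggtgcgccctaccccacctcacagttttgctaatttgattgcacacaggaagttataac
The Fzd1 window lies at chr5:4758217-4758466 on the minus strand and holds 2 matches, and the Fzd7 window at chr1:59481897-59482146 on the plus strand holds 1. The Dkk2 window lies at chr3:132085042-132085291 on the plus strand with 1 match. The Lef1 window, at chr3:131156044-131156293 on the plus strand, holds 3 matches and belongs to an internal start within an intron of the gene, 1 of the 4 Lef1 windows in the table; the gene counts do not separate transcripts from different starts. These 6-base elements are common: 27.6% of 32851 windows held at least 1 match, and so did 30.8% of genes. Windows were available for 32 of the 49 genes, of which 8 (25.0%) held a match. Among called genes with a window, a match was present in 4 of the 7 that were higher and in 0 of the 5 that were lower. A match is not evidence of binding.

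Among the 10 frizzled receptors, Fzd1, Fzd7 and Fzd2 rose and none was called lower. Fzd1, a single-exon gene at chr5:4753839-4758035 (GRCm38, minus strand), had 2022.9, 1120.8, 3348.3 and 2237.9 normalized counts in tumors 1 to 4, against 367.2, 422.2, 333.3, 366.3 and 367.3 in oviducts 1 to 5. The oviducts lay close together and every tumor was above them. The mean was 2182 ± 916 in tumors (SD, n = 4) and 371 ± 32.0 in oviducts (SD, n = 5), 5.88-fold higher in tumors, with a log2 change of 2.39 ± 0.26 (SE, adjusted p = 7.26e-05 by limma). Fzd7 had 2050.1, 1068.6, 1903.8 and 484.8 in tumors, against 334.9, 330.9, 269.7, 352.1 and 161.9 in oviducts. Tumor 4 was the lowest tumor but still above every oviduct, and the log2 change was 2.01 ± 0.40 (adjusted p = 0.00352 by limma). Fzd2, which like Fzd1 and Fzd7 belongs to 1 subfamily of the receptors by sequence, had 1388.7, 1277.5 and 1388.2 in tumors 1 to 3 and 437.5 in tumor 4, against 261.2, 296.5, 243.8, 452.0 and 347.2 in oviducts. Tumor 4 fell within the oviduct range; the log2 change was 1.64 ± 0.33 (adjusted p = 0.00423 by limma), and 2.04 ± 0.19 without tumor 4 (adjusted p = 4.29e-05 by limma). Fzd10 was at 343.8, 358.8 and 386.2 in tumors 1 to 3 and 33.7 in tumor 4, against 48.7 to 88.2 in oviducts, so that tumor 4 was below every oviduct. Fzd10 was not called over all libraries (log2 change 1.41 ± 0.55, adjusted p = 0.0752 by limma) and was called without tumor 4 (2.13 ± 0.20, adjusted p = 4.11e-05 by limma).

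The other frizzleds differed less. Fzd6, the receptor with the highest level per kilobase in oviducts and a component of planar polarity signalling, had 683.6 to 1452.4 normalized counts in tumors and 1366.1 to 1776.3 in oviducts. Its log2 change of -0.66 ± 0.20 passed the adjusted p (0.0284 by limma) but not the minimum change. Fzd8 likewise had a log2 change of -0.83 ± 0.24 (adjusted p = 0.0227 by limma), with 147.5 to 172.6 in tumors 1 to 3, 352.3 in tumor 4 and 314.4 to 445.7 in oviducts; without tumor 4 it was called lower at -1.09 ± 0.16 (adjusted p = 0.000689 by limma). Fzd3, Fzd4 and Fzd5 had log2 changes of -0.63, 0.16 and -0.14 with adjusted p from 0.223 to 0.824, and Fzd9 had at most 19.3 counts in any library. Divided by exon length, Fzd1, Fzd2 and Fzd7 together held 73.1%, 64.3%, 73.0% and 62.1% of the summed frizzled level in tumors 1 to 4, against 26.3% to 36.3% in oviducts. Fzd6 held 10.3% to 17.4% in tumors and 35.7% to 45.0% in oviducts. The most abundant frizzled per kilobase was Fzd1 in tumors 1, 3 and 4, Fzd2 in tumor 2 and Fzd6 in all 5 oviducts. The summed stromal, endothelial, macrophage and proliferation markers given above were higher in tumors, like the 3 receptors, and their part was not tested.

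**Figure D2:**
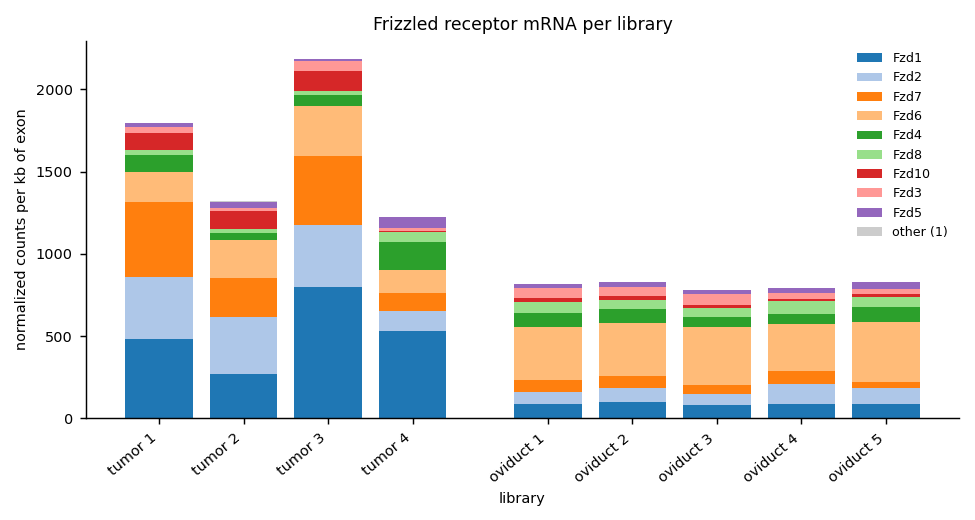
Frizzled receptor levels per library (y axis, normalized counts per kilobase of exon), stacked by receptor, tumors 1 to 4 on the left and oviducts 1 to 5 on the right. The dark blue, light blue and dark orange segments are Fzd1, Fzd2 and Fzd7, which made up 62.1% to 73.1% of the bars in tumors and 26.3% to 36.3% in oviducts.

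Neither coreceptor was called. Lrp5 had 1523.7, 647.3, 891.7 and 1126.3 normalized counts in tumors, against 1042.6, 972.5, 1069.7, 1521.0 and 1151.1 in oviducts, with a log2 change of -0.18 ± 0.23 (adjusted p = 0.589 by limma). Lrp6 had 2001.5, 1085.6, 2207.8 and 1570.1 in tumors, against 1558.3, 1265.2, 1462.7, 1206.6 and 1062.9 in oviducts, with a log2 change of 0.35 ± 0.21 (adjusted p = 0.238 by limma). Both genes overlapped between the groups.

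Of the 17 ligands, Wnt2b and Wnt16 fell and Wnt2 and Wnt7a rose. Wnt2b, a canonical ligand at chr3:104945272-104961921 (GRCm38, minus strand), had 122.4, 93.1, 112.6 and 34.7 normalized counts in tumors, against 708.8, 802.6, 795.0, 521.9 and 438.8 in oviducts. Every oviduct was above every tumor, and the oviduct mean was 7.20-fold higher. The log2 change was -2.66 ± 0.31 (adjusted p = 0.000116 by limma). Wnt16 had 431.2, 29.5, 20.3 and 191.4 in tumors, against 888.5, 834.0, 1087.6, 999.8 and 981.4 in oviducts. The oviducts were even, while the tumors spread widely below them; the mean was 168 ± 192 in tumors and 958 ± 99.1 in oviducts, with a log2 change of -3.07 ± 0.63 (adjusted p = 0.00431 by limma). Without tumor 1 the tumor mean was 80.4 ± 96.2 and the log2 change -3.73 ± 0.48 (adjusted p = 0.000503 by limma). Per kilobase of exon, Wnt16 and Wnt2b together made up 10.8%, 2.13%, 1.98% and 3.56% of the summed ligand level in tumors 1 to 4 and 28.0% to 35.0% in oviducts. The ciliated and mesothelial marker sums and Ovgp1, given above, were also lower in tumors than in oviducts. Of 6 smooth muscle markers 2 were called lower, while the sums of this list overlapped between the groups. In tumors 1 to 4 the mesothelial sum was 1110, 760, 1836 and 2359. Different genes made it up: in tumor 3 it was mostly Wt1, at 1554.8, and in tumor 4 Msln was at 1229.4, above every oviduct. Msln was not called, while the other 4 genes of the list were called lower. The part of these cell types was not tested.

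Wnt2 was a low-level ligand that rose in the tumors. It had 23.3, 54.5, 167.8 and 14.7 normalized counts in tumors, against 6.7, 3.7, 12.9, 7.1 and 1.1 in oviducts, with no overlap. The log2 change was 1.61 ± 0.47 (adjusted p = 0.0254 by limma) and missed the threshold without oviduct 2, oviduct 5 or tumor 2, at adjusted p of 0.0575, 0.0600 and 0.0595. Wnt7a, needed in the mouse for the patterning of the oviduct and uterus, had 533.2, 391.8 and 319.7 in tumors 1 to 3 and 2342.0 in tumor 4, against 273.5, 318.9, 235.8, 100.6 and 87.1 in oviducts. Tumor 3 was above the highest oviduct by less than 1 count, and tumor 4 stood far above the rest. The log2 change of 1.70 ± 0.57 (adjusted p = 0.0442 by limma) was 1.08 ± 0.40 without tumor 4 (adjusted p = 0.0602), and leaving out tumor 1, oviduct 1, oviduct 3, oviduct 4 or oviduct 5 also gave an adjusted p between 0.0573 and 0.0976. The related Wnt7b was highest in tumor 4 too, at 1415.5, against 192.3, 563.2 and 136.2 in tumors 1 to 3 and 337.1 to 542.3 in oviducts, and was not called (log2 change -0.19 ± 0.54, adjusted p = 0.826 by limma). Both ligands together made up 70.0% of the ligand level per kilobase in tumor 4, 8.10% to 17.6% in the other tumors and 10.9% to 14.9% in oviducts.

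Several of the better known ligands of the female tract were not called. Wnt5a, which signals mainly outside the beta-catenin branch, had 1702.4, 2534.6, 5136.2 and 949.6 normalized counts in tumors, against 1444.4, 1252.5, 1141.3, 1385.8 and 1710.4 in oviducts. Tumors 2 and 3 were above and tumor 4 below all oviducts, and the log2 change was 0.64 ± 0.39 (adjusted p = 0.242 by limma), or 1.02 ± 0.30 without tumor 4 (adjusted p = 0.0254 by limma). Wnt4, which acts in ovary and Müllerian duct development, had 756.5, 1051.5, 886.1 and 602.6 in tumors, against 766.9, 759.9, 587.1, 455.9 and 385.2 in oviducts. The groups overlapped at a log2 change of 0.49 ± 0.24 (adjusted p = 0.145 by limma). Wnt11, a ligand of cell movement and polarity, had 1082.8, 896.0, 566.3 and 216.6 in tumors, against 861.7, 1074.3, 1053.8, 1002.2 and 606.2 in oviducts, with a log2 change of -0.59 ± 0.40 (adjusted p = 0.287 by limma).

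The remaining 9 ligands were not called. Wnt9a had 333.1, 117.0, 261.2 and 97.8 normalized counts in tumors and 33.5 to 116.1 in oviducts (log2 change 0.93 ± 0.40, adjusted p = 0.100 by limma; called without tumor 4 at 1.19 ± 0.39, adjusted p = 0.0388). Wnt6 was uneven, at 264.6 and 293.9 in tumors 2 and 3, 30.1 and 6.3 in tumors 1 and 4, and 30.1 to 76.4 in oviducts. Tumor 2 had 74.9 counts of Wnt10a, tumors 1, 3 and 4 had 2.9 to 10.1, and the oviducts at most 4.5. Wnt5b had 72.6 to 351.3 in tumors and 82.6 to 154.8 in oviducts. Wnt10b was at 0 in tumors 1 to 3 and 3.2 in tumor 4, against 456.5 in oviduct 1 and at most 9.0 in oviducts 2 to 5. Wnt3, Wnt8a, Wnt8b and Wnt9b averaged under 10 counts, and Wnt8a had 0 reads in all 4 tumors and at most 26.8 counts in oviducts. The adjusted p of the 8 ligands other than Wnt9a ran from 0.0591 for Wnt3 to 0.739 for Wnt8b (limma).

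**Figure D3:**
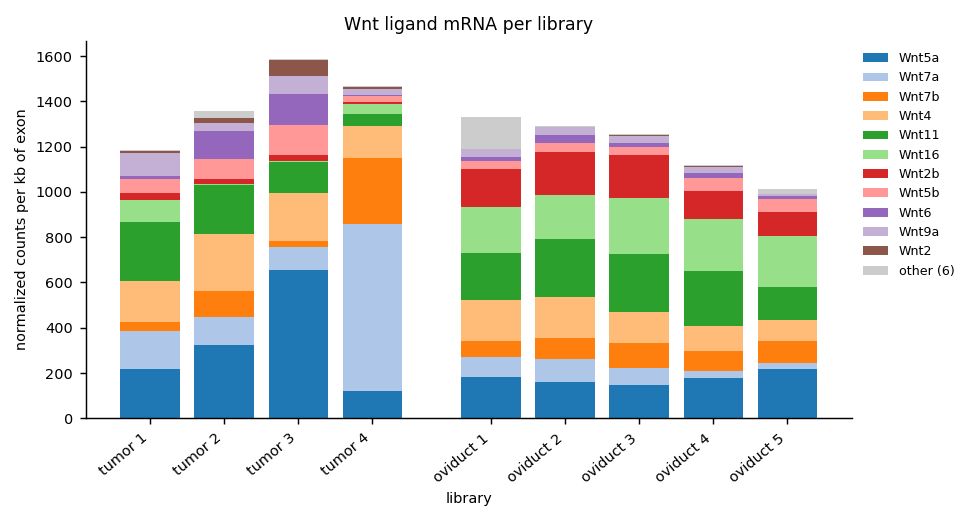
Wnt ligand levels per library (y axis, normalized counts per kilobase of exon), stacked by ligand, tumors on the left and oviducts on the right. The light green and red segments of Wnt16 and Wnt2b made up at most 10.8% of the bars in tumors and 28.0% to 35.0% in oviducts, and the light blue and dark orange segments of Wnt7a and Wnt7b made up 70.0% in tumor 4.

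R-spondins bind LGR4, LGR5 and LGR6 and thereby keep the ligases ZNRF3 and RNF43 from removing frizzleds. In tumors Rspo1, Lgr5 and Lgr6 were lower and no gene of this group was higher. Rspo1, at chr4:124986430-125009099 (GRCm38, plus strand), had 62.2, 170.3, 139.6 and 127.2 normalized counts in tumors, against 520.2, 677.5, 554.2, 489.7 and 377.4 in oviducts. All oviducts were above all tumors, the oviduct mean being 4.20-fold higher, with a log2 change of -1.95 ± 0.26 (adjusted p = 0.000291 by limma). Lgr6 had 38.8, 77.2, 4.5 and 74.7 in tumors, against 379.5, 377.3, 291.5, 194.9 and 371.8 in oviducts. These did not overlap either, at a log2 change of -2.54 ± 0.44 (adjusted p = 0.00169 by limma). Lgr5, a stem cell marker in intestine and other epithelia, had 10.7, 36.3, 29.3 and 66.3 in tumors, against 136.2, 202.9, 94.5, 78.6 and 52.5 in oviducts. Tumor 4 was above oviduct 5, and the log2 change of -1.29 ± 0.40 (adjusted p = 0.0315 by limma) missed the threshold without oviduct 1, oviduct 2, oviduct 3, tumor 1, tumor 2 or tumor 3, at adjusted p from 0.0533 to 0.0747.

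Lgr4 was by far the most abundant of the 3 receptors, with 87.0% to 97.3% of their level per kilobase in tumors and 74.6% to 89.1% in oviducts. It had 1047.9, 613.2, 753.2 and 680.4 normalized counts in tumors, against 1783.8, 1295.2, 1415.9, 1741.1 and 1285.0 in oviducts. The groups did not overlap and the adjusted p was 0.00269 by limma, but the log2 change of -0.95 ± 0.18 lay just under the minimum. Rspo3, an R-spondin of stroma and vessels, was uneven in both groups, with 403.0, 263.5, 905.2 and 22.1 in tumors, against 324.8, 327.9, 173.1, 470.0 and 93.8 in oviducts. Its log2 change was -0.03 ± 0.78 (adjusted p = 0.982 by limma), and 0.86 ± 0.50 without tumor 4 (adjusted p = 0.210). Rspo4 was found in tumor 1 at 99.1, in tumor 2 at 2.3, at 0 in tumors 3 and 4, and as 1 read in oviduct 3. Rspo2 had 18.5 counts in tumor 1, 0 in the other tumors and at most 5.5 in oviducts.

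The secreted antagonists moved in both directions, 3 higher and 2 lower of 8, where 6.53% of all genes were called higher and 12.1% lower. Sfrp2, one of the frizzled-related proteins that bind Wnts through a frizzled-like domain, had 3882.6, 797.2, 2050.2 and 1050.6 normalized counts in tumors, against 129.5, 197.6, 116.4, 202.0 and 230.0 in oviducts. Every tumor was above every oviduct, with an 11.1-fold higher mean and a log2 change of 3.10 ± 0.41 (adjusted p = 0.000306 by limma). An antisense gene, Gm26771, covers 16.1% of the Sfrp2 exons, and the strandedness of the counting is not given in the sources used here. Sfrp1, at chr8:23411502-23449632 (GRCm38, plus strand), had 1950.0, 2799.2, 6412.9 and 7870.6 in tumors, against 650.8, 624.4, 523.4, 345.9 and 550.4 in oviducts. The groups were again apart, with a mean of 4758 ± 2837 in tumors and 539 ± 120 in oviducts, 8.83-fold higher in tumors (log2 change 2.90 ± 0.39, adjusted p = 0.000302 by limma). Sfrp1 was highest in tumor 4, where Fzd2 and Dkk2 were lowest among the tumors. The stromal, endothelial, macrophage and proliferation marker sums given above were also higher in tumors than in oviducts, and their part was not tested. Sfrp5 had 1.9, 9.1, 6.8 and 9.5 in tumors, against 14.5, 27.0, 42.8, 30.7 and 34.6 in oviducts, a low level that was lower in tumors without overlap (log2 change -1.07 ± 0.26, adjusted p = 0.0105 by limma). Without oviduct 3 or tumor 1 its log2 change was -0.98 or -0.92, under the minimum.

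Sfrp4 was set by a single library. It had 817.7, 638.2, 228.6 and 352.3 normalized counts in tumors, against 10759.5, 333.9, 269.7, 335.6 and 145.1 in oviducts. Oviduct 1 stood far above all other libraries, and the log2 change of -0.28 ± 1.04 (adjusted p = 0.863 by limma) became 0.77 ± 0.40 without it (adjusted p = 0.196). Oviduct 1 was also the library with most Wnt10b. Star, a gene of steroid-producing cells, was at 47.7 to 530.0 in tumors, 3334.2 in oviduct 1 and 159.7 to 617.6 in oviducts 2 to 5. The other ovary markers listed were not highest in oviduct 1. Cyp19a1 was at 19.0 there and 56.1 in oviduct 2. Fshr was at 1.1 there and 6.3 in oviduct 4, and Gdf9 at 13.4 there and 45.6 in oviduct 4. The part of ovarian tissue was not tested.

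The Dickkopf genes differed from each other. Dkk2, a modulator that binds LRP6, had 1602.4, 561.0 and 1772.1 normalized counts in tumors 1 to 3 and 88.3 in tumor 4, against 88.2, 104.1, 53.7, 168.2 and 109.4 in oviducts. Tumors 1 to 3 were above every oviduct and tumor 4 within their range. The log2 change of 2.45 ± 0.72 (adjusted p = 0.0255 by limma) was 3.32 ± 0.40 without tumor 4 (adjusted p = 0.000181), and leaving out oviduct 1, 2 or 3 or tumor 1, 2 or 3 gave an adjusted p from 0.0501 to 0.0711. Dkk1, an inhibitor of LRP5 and LRP6, had 261.2, 5.7, 103.6 and 0 in tumors and no read in any oviduct. Against a floor of 3 counts per oviduct library the tumor mean was at least 27.6-fold higher, or at least 10.9-fold without tumor 1, and that floor covers counting error only. The test did not call it (log2 change 2.32 ± 0.80, adjusted p = 0.0503 by limma); it was called without tumor 4 (3.09 ± 0.65, adjusted p = 0.0049) and without tumor 2 (adjusted p = 0.0405). Dkk3, the most distant relative of the family, went the other way, with 4180.7, 1452.4, 1168.6 and 1092.7 in tumors, against 3752.8, 4086.9, 4918.5, 6302.4 and 3023.3 in oviducts. Only tumor 1 lay within the oviduct range, and the log2 change was -1.35 ± 0.38 (adjusted p = 0.0208 by limma), with an adjusted p of 0.0509 to 0.0535 without oviduct 4, tumor 2 or tumor 3. Wif1, which binds Wnts directly, had 30.1, 48.8, 81.1 and 0 in tumors, against 24.6, 42.7, 18.9, 6.3 and 8.9 in oviducts (log2 change 0.29 ± 0.59, adjusted p = 0.751 by limma).

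**Figure D4:**
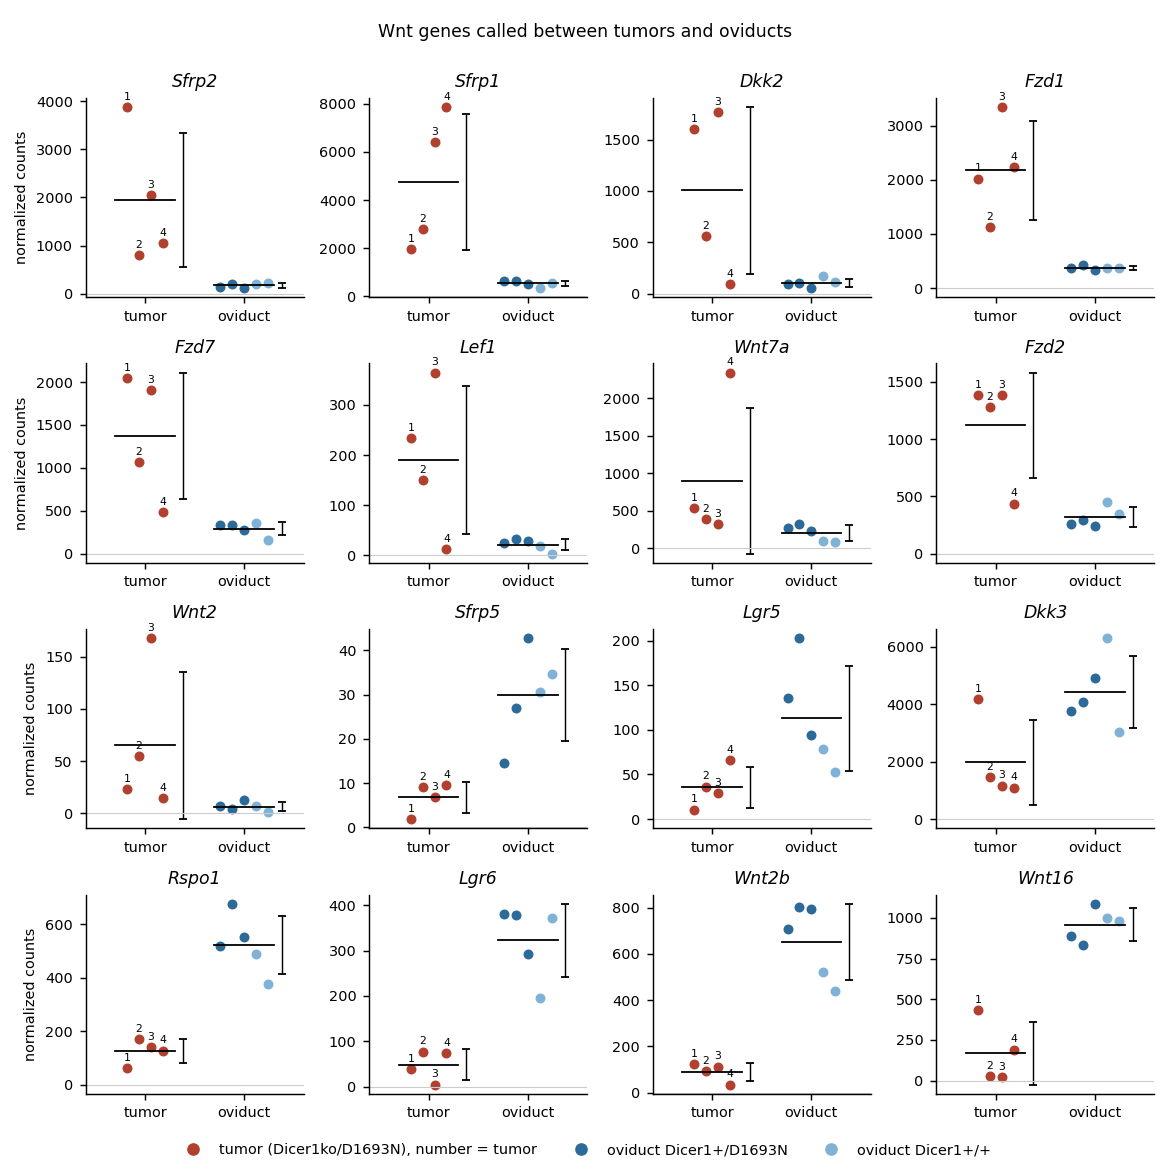
Normalized counts (y axes) of the 16 called genes in each library, tumors on the left of each panel with their numbers and oviducts on the right, dark blue for Dicer1+/D1693N and light blue for Dicer1+/+. Horizontal lines are group means and bars ± SD (n = 4 tumors and 5 oviducts). Tumor 4 lies within the oviduct range for Dkk2, Fzd2, Lef1 and Lgr5, and tumor 1 for Dkk3.

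None of the feedback inhibitors was called. Axin2, the most widely used readout of canonical signalling and a member of the destruction complex, had 492.4, 366.8, 555.1 and 187.2 normalized counts in tumors, against 589.4, 647.6, 597.0, 508.6 and 490.1 in oviducts. Tumors 2 and 4 were below all oviducts, tumors 1 and 3 within their range, and the log2 change was -0.57 ± 0.27 (adjusted p = 0.132 by limma). Nkd1, an inhibitor of Dishevelled, had 1074.1, 682.5, 1013.3 and 229.3 in tumors, against 405.2, 386.3, 349.3, 430.0 and 236.7 in oviducts. Here tumors 1 to 3 were above and tumor 4 below every oviduct; the log2 change was 0.83 ± 0.39 (adjusted p = 0.136 by limma), and 1.30 ± 0.22 without tumor 4 (adjusted p = 0.00143 by limma). Notum, an enzyme that removes the lipid from Wnts, had 431.2, 147.6, 337.8 and 47.3 in tumors, against 317.0, 289.7, 284.6, 103.8 and 174.2 in oviducts, with a log2 change of -0.21 ± 0.53 (adjusted p = 0.803 by limma) and 29.4% of its exons under the antisense gene Notumos. The sign of its change turned without tumor 4, to 0.33.

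The factor Lef1 rose in 3 of 4 tumors. It had 233.1, 149.9 and 364.8 normalized counts in tumors 1 to 3 and 11.6 in tumor 4, against 23.4, 31.4, 27.9, 18.9 and 3.3 in oviducts. The log2 change of 2.00 ± 0.66 (adjusted p = 0.0424 by limma) became 2.79 ± 0.39 without tumor 4 (adjusted p = 0.00043), while leaving out any single other library gave an adjusted p from 0.0635 to 0.104. Tcf7, its partner in lymphocytes and elsewhere, had 392.3, 291.8, 295.0 and 145.1 in tumors, against 152.9, 191.7, 192.0, 115.5 and 139.6 in oviducts. Its first 3 tumors were above every oviduct, and the log2 change of 0.70 ± 0.27 was not called (adjusted p = 0.0713 by limma). Across the 9 libraries, which share the split into tumors and oviducts, the genes ranked most like Lef1 were Tcf7, Wif1 and Fzd10, with Spearman correlations of 0.92, 0.88 and 0.88. Those most like Axin2 were Wnt2b, Fzd3 and Rspo1, at 0.88, 0.85 and 0.77. Lef1 and Axin2 correlated at 0.28.

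**Figure D5:**
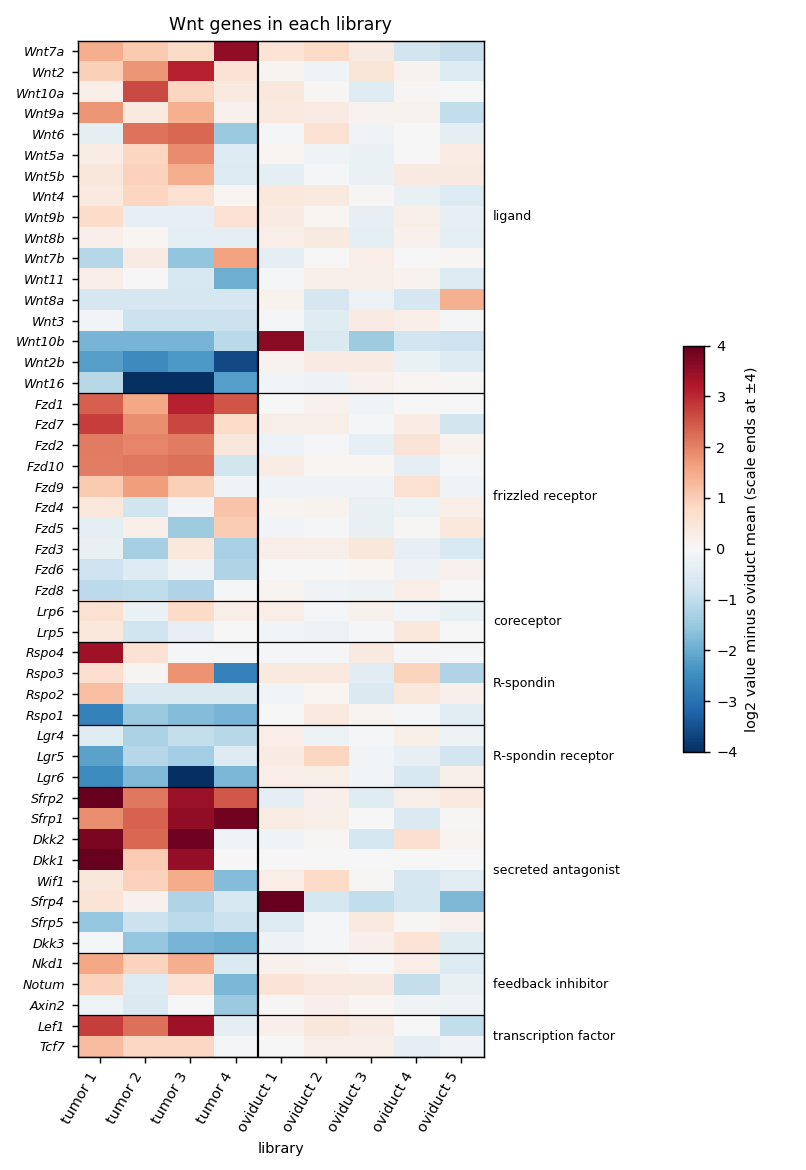
Deposited log2 value minus the oviduct mean (colour, red above and blue below, scale ending at 4 in each direction) for the 49 genes (rows, by role) in tumors 1 to 4 and oviducts 1 to 5 (columns). Tumor 4 departs from tumors 1 to 3 for Dkk2, Lef1, Fzd10 and Nkd1, and oviduct 1 stands out for Sfrp4 and Wnt10b.

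Tumor 4 had the largest share of genes within the oviduct range, among the 49 genes and among all genes. Of the 49 genes it had 36.7% within the oviduct range, against 26.5%, 20.4% and 20.4% in tumors 1 to 3; over all genes these shares were 31.5% in tumor 4 and 28.4%, 29.7% and 26.5% in tumors 1 to 3. Without tumor 4 Dkk1, Fzd9, Fzd10, Nkd1, Wnt5a and Wnt9a were also called higher and Fzd8 lower, and Wnt7a lost its call. Calls over all genes rose as well, from 18.7% with tumor 4 to 21.5% without it. Tumor 4 was the tumor with fat cell markers, whose summed level is given above. Fat was not its only difference in markers. Among the tumors it had the highest macrophage sum, at 37435, and the lowest Ovgp1, at 111.5. Epcam, Krt8 and Cdh1 were highest in tumor 4, at 4357.0, 5140.5 and 4114.1, while Pax8 and Krt18 were not. The part of these cell types was not tested.

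Of 77 other genes of the pathway, 76 were in the table, and 14 (higher) and 6 (lower) were called, together 26.3%. By the same rule 18.7% of all genes were called, 6.53% higher and 12.1% lower. That share also stands beside the count of each list below. In the secretion and turnover list 1 of 7 was higher, Gpc3, a glypican that binds Wnts at the cell surface, with 5320.8, 4108.5, 3137.8 and 2088.6 normalized counts in tumors, against 976.7, 1018.2, 814.9, 558.9 and 477.8 in oviducts (log2 change 2.20 ± 0.30, adjusted p = 0.000382 by limma). Rnf43, a ligase that removes frizzleds, had 151.5 to 277.0 in tumors and 346.6 to 503.5 in oviducts, without overlap, at a log2 change of -0.99 ± 0.19, just under the minimum. Of the 16 transducers 1 was called, Ctnnbip1, an inhibitor of beta-catenin binding to TCF, at 1.12 ± 0.16. Ctnnb1, which encodes beta-catenin, had 8554.3 to 10870.2 in tumors and 8376.7 to 9040.2 in oviducts (log2 change 0.17 ± 0.15, adjusted p = 0.424 by limma). Of 11 nuclear partners Tcf7l1, a mostly repressive TCF, was higher (1.43 ± 0.35) and the corepressor gene Tle2 lower (-1.81 ± 0.47).

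Receptors outside the beta-catenin branch and their partners were called in 5 of 13 cases. Ror2, a receptor of Wnt5a, had 904.1, 637.1, 1061.7 and 518.5 normalized counts in tumors, against 89.3, 122.0, 97.5, 96.7 and 90.4 in oviducts (log2 change 2.70 ± 0.22). No tumor overlapped the oviducts. Ptk7 was higher at 1.65 ± 0.29, Ror1 at 1.93 ± 0.60 and Daam2 at 1.57 ± 0.53, while the planar polarity cadherin gene Celsr1 was lower at -2.31 ± 0.18. Ror1 missed the threshold without any single library other than oviduct 2 or tumor 4 (adjusted p from 0.0512 to 0.0771), and Daam2 without any other than tumor 4 (0.0727 to 0.117), without which its change was 2.21 ± 0.29. In the list of 16 other antagonists and coreceptor partners, Frzb (2.91 ± 0.42), Dact1 (2.72 ± 0.51) and Nkd2 (1.09 ± 0.26) were higher. Frzb is a further frizzled-related antagonist. Ndp (-1.81 ± 0.32), Kremen1 (-1.39 ± 0.26) and Sost (-1.05 ± 0.35, at most 16.9 counts) were lower. Ndp, though in this list, encodes a ligand of FZD4 and not an antagonist. The change of Nkd2 was 0.95 without oviduct 5 and 0.94 without tumor 3, under the minimum, and Sost missed the threshold without oviduct 1, 2, 3 or 4 or tumor 2, 3 or 4 (adjusted p from 0.0605 to 0.0924).

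Of 13 genes known as beta-catenin targets in other tissues, 4 were higher and 1 lower. Mmp7, a matrix protease, had 587.5, 7709.4, 264.6 and 5656.8 normalized counts in tumors, against 106.0, 191.7, 148.3, 112.4 and 49.1 in oviducts (log2 change 3.64 ± 0.89). Its log2 change was 2.90 without tumor 2, 3.05 without tumor 4 and 4.49 without tumor 3, and it was called each time. Ephb3 (1.47 ± 0.16), Ephb2 (1.16 ± 0.26) and Twist1 (1.42 ± 0.36) were also higher, all without overlap between groups. Sp5, a direct target in embryos, had 0, 19.3, 5.6 and 3.2 in tumors, against 21.2, 62.1, 26.9, 33.0 and 14.5 in oviducts, and was lower at -1.26 ± 0.38 (adjusted p = 0.0308 by limma). Myc and Ccnd1 had log2 changes of 0.36 ± 0.20 and 0.09 ± 0.33 and were not called (adjusted p = 0.198 and 0.870 by limma). Sp5 missed the threshold without oviduct 2, oviduct 3, oviduct 4, tumor 1 or tumor 4 (adjusted p from 0.0519 to 0.0731), and Ephb2 came just under the minimum change without tumor 4.

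Tumors were also set against each control genotype, in a model in which the 9 libraries share 1 spread; both comparisons use the same tumors. Against the Dicer1+/D1693N oviducts, which carry the D1693N allele too, 6 of the 49 genes were higher and 5 lower, where 16.6% of all genes were called, 5.17% higher and 11.4% lower. Against the Dicer1+/+ oviducts 5 were higher and 5 lower, where 13.8% of all genes were called, 4.07% higher and 9.74% lower. Without tumor 4 the calls numbered 21 against Dicer1+/D1693N, where 20% of all genes were called, and 22 against Dicer1+/+, where 18.4% were. Against Dicer1+/+ they numbered 6 without oviduct 2, with 11.1% of all genes called, and 4 without oviduct 4 or oviduct 5, with 7.21% and 5.78%. Fzd1 changed by 2.38 ± 0.31 against Dicer1+/D1693N and 2.40 ± 0.35 against Dicer1+/+ oviducts on the log2 scale, Sfrp1 by 2.73 ± 0.45 and 3.16 ± 0.51, Sfrp2 by 3.31 ± 0.48 and 2.79 ± 0.54, and Fzd7 by 1.88 ± 0.47 and 2.22 ± 0.53. All 4 were called in both. On the lower side, Rspo1 changed by -2.11 ± 0.29 and -1.70 ± 0.33, Wnt2b by -2.92 ± 0.32 and -2.26 ± 0.36, Wnt16 by -3.04 ± 0.76 and -3.12 ± 0.86, and Lgr6 by -2.68 ± 0.52 and -2.34 ± 0.59, again called in both. Fzd2, Dkk2 and Lgr5 were called only against Dicer1+/D1693N oviducts, and Wnt7a and Sfrp5 only against Dicer1+/+ oviducts; the test of the difference, which is the genotype comparison below, called none of these 5.

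Between the 2 oviduct genotypes, Dicer1+/D1693N against Dicer1+/+, limma called 0 of the 49 genes and 0.0206% of all genes; 1 of the 49 had an unadjusted p under 0.05. That gene was Wnt4, with 766.9, 759.9 and 587.1 normalized counts in Dicer1+/D1693N oviducts and 455.9 and 385.2 in Dicer1+/+ oviducts (log2 change 0.71 ± 0.25, unadjusted p = 0.018, adjusted p = 1.0 by limma). With 3 and 2 libraries, the genotypes did not overlap for 21 of the 49 genes, 14 higher and 7 lower in Dicer1+/D1693N, where 32% of all genes did not overlap, 16.3% higher and 15.7% lower. Wnt7a was among them, at 273.5, 318.9 and 235.8 in Dicer1+/D1693N and 100.6 and 87.1 in Dicer1+/+ oviducts (log2 change 1.37 ± 0.69).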

How the data were processed

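Poly-A RNA of 4 tumors and 5 oviducts was sequenced. The submitters' processing notes name FastQC 0.11.5, STAR 2.5.3a, HTSeq and GRCm38 (mm10); annotation and strandedness are not given in the sources used here. The table the authors deposited holds log2 values with a common floor of 3.427 and an unstated transformation. Inverting a variance-stabilizing form turned 100% of the values into whole numbers of reads, within 0.05 reads, once scaled by 1 factor for each library. On the deposited scale, differences of genes with few reads come out too small, and intervals or floors cover counting error only.

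Groups came from the labels. Tests were made on the deposited log2 values with limma 3.58.1 in R 4.3.3 (trend in the prior variance, two-sided, Benjamini-Hochberg over 19435 genes), in a 2-group model and, for the genotypes, a 3-group model; the fit was tested on simulated data. Exon lengths and positions came from GENCODE M21. Same-numbered libraries are not paired by the labels. Alternatives were quantile normalization, no trend, limma-voom on recovered reads, log2 of normalized counts plus 1, a mean of at least 10 counts, no minimum change, each library left out, a replicate block and controls of 1 genotype; leaving out oviduct 1 and tumor 4 together was chosen after seeing the data. The 49 genes, the lists and the naming rule (each called gene, a fixed set of well known members, and called genes of the other pathway lists) were chosen with earlier results of these data known. Values given for other members and for Rnf43, Ctnnb1, Myc, Ccnd1, Dicer1, Krt18, Star and the other ovary markers were picked after their values were seen.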

Additional observations from a re-analysis of the deposited data

Results flagged for a closer look

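In 96 groups of libraries, 1 per gene and group with any spread, the highest or lowest library was tested for its distance from the rest. It lay beyond Dixon's 95% limit in 10 of them. The chance rate of about 1 in 20 does not hold where all other libraries are at 0. There any read passes the limit, so no excess can be read from the 10. Tumor 4 had 33.7 normalized counts of Fzd10, with 343.8 to 386.2 in the other tumors, and 437.5 of Fzd2, with 1277.5 to 1388.7 in the others. Oviduct 1 had 10759.5 of Sfrp4, with 145.1 to 335.6 in the other oviducts, and 456.5 of Wnt10b, with 1.0 to 9.0 in the others. Oviduct 5 had 33.5 of Wnt9a, with 95.1 to 116.1 in the others. The remaining 5 were genes at 0 in all other libraries of the group: Rspo2 at 18.5 in tumor 1, Wnt3 at 2.9 in tumor 1, Wnt10b at 3.2 in tumor 4, Fzd9 at 3.1 in oviduct 4 and Rspo4 at 1.0 in oviduct 3.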

How the results depend on the processing

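Of the 16 calls, those of Fzd1, Rspo1, Sfrp1, Sfrp2 and Wnt2b held under all 18 alternatives, and those of Fzd2, Fzd7, Lgr6 and Wnt16 under 17, being lost with the Dicer1+/+ oviducts as only controls. Lef1 was called in 5 alternatives, Wnt7a in 6, Dkk2 in 8 and Lgr5 in 9. The 49 genes gave 9 higher and 7 lower calls. Leaving out each library gave 6 to 14 higher and 5 to 8 lower, where 16.7% to 21.5% of all genes were called. Only Dicer1+/D1693N oviducts as controls gave 5 higher, with 15.1% of all genes called. Only Dicer1+/+ oviducts gave 3 higher and 2 lower, with 7.9% of all genes called, against 18.7% with all oviducts. Leaving out oviduct 1 and tumor 4 together gave 14 higher, with 20.4% of all genes called. The other pathway genes gave 14 higher and 6 lower, 8 higher with only Dicer1+/D1693N oviducts, and 6 higher and 1 lower with only Dicer1+/+ oviducts; fewer libraries enter these fits. Leaving out each library gave 8 to 21 calls against Dicer1+/D1693N oviducts, where 11.4% to 20% of all genes were called. Against Dicer1+/+ oviducts it gave 4 to 22, where 5.78% to 18.4% of all genes were called, and between the genotypes 0. With the replicate block, 5 of the 49 genes were higher and 7 lower, where 16.6% of all genes were called, 5.32% higher and 11.3% lower. Deviations of same-numbered libraries correlated at 0.134, 0.073, -0.093 and 0.010. These values cannot show whether such libraries share an animal or a batch, and the labels do not pair them.

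Signs turned only for genes that were not called. On the log2 scale Rspo3 was at 0.06 with quantile normalization, -0.64 to 0.86 with a library left out, 0.13 with Dicer1+/+ controls and 0.96 without oviduct 1 and tumor 4. Sfrp4 was at 0.97 with Dicer1+/+ controls, 0.89 without both libraries and -0.74 to 0.77 with a library left out (0.77 without oviduct 1). Notum was at -0.58 to 0.33 with a library left out (0.33 without tumor 4), 0.41 with Dicer1+/+ controls and 0.46 without both. Wif1 was at -0.10 with limma-voom, -0.09 with Dicer1+/D1693N controls and -0.12 without tumor 3, and Lrp5 at -0.38 to 0.02 with a library left out (0.02 without tumor 2). The causes were not tested. Over all genes the median change was 0.078 after quantile normalization and -0.048 as deposited. At this depth, 6 of the 49 genes averaged under 10 counts, where small differences were not detectable.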
